A study of Mus musculus with 84 samples.

Results

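H3K27ac was compared between epididymal adipocytes of HHC mice, which had lost weight after long obesity, and of their CCC controls, in 5 of the 84 libraries of the series. HHC mice received a high-fat diet for 25 weeks and then chow for 8 weeks, and CCC mice received chow throughout. Both groups were 39 weeks old. By the study's methods, controls first ate a low-fat chow, and a standard chow was given to both groups during weight loss. CCC and CC_s mice thus changed chow as well. All mice were male and carried AdipoERCre and NuTRAP on a C57BL/N background by the study's methods (C576BL6 in the labels), so that tamoxifen, given before the diets, switched on a biotin tag on the nuclei of cells expressing the adipocyte-specific Cre, and tagged nuclei were pulled down from frozen tissue. HHC had 3 libraries (replicates 1, 2 and 3) and CCC had 2 (replicates 1 and 3). Where other groups are named, C and H were 18 weeks old, on chow or after 12 weeks of high-fat diet, CC_s and HC were 26 weeks old, on chow or after 12 weeks of high-fat diet and 8 weeks of chow, and CC_l and HH were 31 weeks old, on chow or after 25 weeks of high-fat diet. The sites were the promoters of 21851 protein-coding genes, taken as 2000 bp on either side of each of 41438 start sites in GENCODE M21 on GRCm38, and 46157 merged H3K27ac regions that touched no promoter window. A peak overlapping a site by 1 bp or more marked it in that library. A site was called gained when it was marked in 3 of 3 HHC and in neither CCC library, and lost when it was marked in both CCC libraries and in none of HHC.

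Acetylation of lysine 27 on histone H3 is written by the acetyltransferases p300 and CBP at active promoters and enhancers, and is removed by histone deacetylases. In adipocytes the strongest deposits lie at genes of lipid storage and of the adipocyte identity programme, which PPARγ and C/EBP factors occupy together. Adipose tissue also holds macrophages, lymphocytes, endothelial cells and mesenchymal progenitors, whose enhancers carry other motifs, such as that of the myeloid factor PU.1.

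The 5 peak lists differed in size, and one stood apart. HHC libraries held 35089, 35997 and 41989 peaks, CCC replicate 1 held 32907 and CCC replicate 3 held 14917, with a median width of 1199 bp against 1909 to 2245 bp in the other 4. The difference in peak number was 0.76 on the log2 scale (HHC minus CCC, two-sided exact permutation test p = 0.1, the smallest value that 3 against 2 libraries allow), so no comparison of these groups could pass 0.05, and each value below is a description with its spread. Peaks were called in each library without an input control or scaling, so an unmarked site is one outside the library's strongest blocks and not one shown to lack the mark. The 15 adipocyte marker promoters were all marked in HHC replicates 1 and 2 and in both CCC libraries, whereas HHC replicate 3 had 10, with no peak at Plin1, Lep, Car3, Acvr1c or Adrb3. Of 20 macrophage markers, 17, 7 and 11 were marked in HHC replicates 1, 2 and 3, against 7 and 1 in CCC replicates 1 and 3. Of 16 lymphocyte markers the counts were 14, 2 and 5 in HHC and 1 and 0 in CCC, and of 16 endothelial markers 6, 6 and 10 against 3 and 1. Itgam, Cd163 and Cybb among the macrophage markers and Gzma and Ncr1 among the lymphocyte markers had no peak in any of the 5 libraries, and none of 11 epithelial markers had one. Acetylation gained in labelled nuclei and nuclei of another cell type in the pull-down cannot be told apart in these lists.

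The overlap of whole peak sets did not follow the groups. The covered bases shared by a pair, divided by those covered by either (the Jaccard index), was highest for HHC replicate 2 and CCC replicate 1, at 0.535, above all 3 pairs within HHC, which gave 0.295 to 0.386. HHC replicate 3 and CCC replicate 3 were least alike, at 0.0804. The mean within groups exceeded that between groups by 0.0548 (two-sided exact permutation test over the 5 libraries, p = 0.6), and by 0.0545 when every list was cut to its 14917 strongest peaks (p = 0.7 in the same exact test).

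The strongest gained and lost sites are shown by the 300 bases around their highest signal, read 5′ to 3′ on the plus strand of GRCm38.p6, since they show which letters lie under the largest differences. Capitals mark matches to any of 6 motifs searched on both strands. These are GAGGAAGT (ETS class III, as bound by PU.1), TGANTCA (AP-1), TTGCNNAA (C/EBP), AGGNCAAAG (the first letters of a PPAR element), TCCCNNGGG (EBF) and GAAANNGAA (part of an interferon-stimulated response element, ISRE).
Gained, intergenic, nearest gene Cebpb (chr2:167805834-167806133): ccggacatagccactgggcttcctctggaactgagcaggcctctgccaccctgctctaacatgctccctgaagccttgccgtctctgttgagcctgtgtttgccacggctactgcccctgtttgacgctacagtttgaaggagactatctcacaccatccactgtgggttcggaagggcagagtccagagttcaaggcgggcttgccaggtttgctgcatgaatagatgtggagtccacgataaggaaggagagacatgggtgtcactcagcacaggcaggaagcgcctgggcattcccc
Gained, intergenic, nearest gene Klf7 (chr1:64301296-64301595): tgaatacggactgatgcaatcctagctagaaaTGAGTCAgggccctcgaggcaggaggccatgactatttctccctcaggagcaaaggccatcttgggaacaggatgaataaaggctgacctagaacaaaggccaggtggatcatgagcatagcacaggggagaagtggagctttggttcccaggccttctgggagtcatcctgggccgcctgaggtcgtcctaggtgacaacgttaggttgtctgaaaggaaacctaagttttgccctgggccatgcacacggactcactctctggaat
Lost, intergenic, nearest gene Oxtr (chr6:112587148-112587447): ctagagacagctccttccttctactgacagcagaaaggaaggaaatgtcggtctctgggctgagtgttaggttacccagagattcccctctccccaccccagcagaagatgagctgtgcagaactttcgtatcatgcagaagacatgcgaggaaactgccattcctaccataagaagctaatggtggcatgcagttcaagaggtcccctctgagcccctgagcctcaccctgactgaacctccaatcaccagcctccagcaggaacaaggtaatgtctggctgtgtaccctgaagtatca
Lost, intron of Nsf (chr11:103896980-103897279): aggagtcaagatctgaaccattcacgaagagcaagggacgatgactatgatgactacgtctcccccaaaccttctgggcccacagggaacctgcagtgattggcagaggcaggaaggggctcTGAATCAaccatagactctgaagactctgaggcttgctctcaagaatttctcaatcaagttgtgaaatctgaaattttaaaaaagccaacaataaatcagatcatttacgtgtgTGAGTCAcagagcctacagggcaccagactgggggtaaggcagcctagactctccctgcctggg
Lost, intron of Frem2 (chr3:53564445-53564744): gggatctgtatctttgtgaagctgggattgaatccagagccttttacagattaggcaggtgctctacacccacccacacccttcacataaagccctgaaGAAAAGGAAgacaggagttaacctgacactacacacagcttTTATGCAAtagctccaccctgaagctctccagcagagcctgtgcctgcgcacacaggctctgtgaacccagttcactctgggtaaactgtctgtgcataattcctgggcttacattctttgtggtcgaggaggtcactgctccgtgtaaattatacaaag
Strongest peak at the Cstad promoter (chr2:30604510-30604809): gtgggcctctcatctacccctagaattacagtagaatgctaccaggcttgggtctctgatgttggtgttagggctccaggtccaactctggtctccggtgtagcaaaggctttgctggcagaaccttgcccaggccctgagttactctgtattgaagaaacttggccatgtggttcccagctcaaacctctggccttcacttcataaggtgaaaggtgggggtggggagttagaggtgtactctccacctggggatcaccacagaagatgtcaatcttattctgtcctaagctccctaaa
The stretch at Klf7 held 1 AP-1 match, that in Nsf held 2, and that in Frem2 held an ISRE match and a C/EBP match. The other 3 stretches held none of these letters. The Cstad stretch lies inside the gene, downstream of its first base. Its peak overlapped a promoter window of the gene, but whether the stretch itself lies in one is not shown.

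Of 21851 promoters, 506 were gained (2.32%) and 15 were lost (0.0686%), while 3480 were marked in all 5 libraries and 8306 in none. The call rested on CCC replicate 1, because CCC replicate 3 marked only 3865 promoters against 11106 in replicate 1 and 11421 to 11711 in HHC. Without CCC replicate 3 there were 510 gained promoters, and without CCC replicate 1 there were 6270. With 14917 peaks in every library, the numbers of marked promoters became 8415, 7336 and 8033 in HHC and 7302 and 3865 in CCC, and 437 promoters were gained (2%) and 67 lost (0.307%). Only 57 promoters were gained both ways, which is 11.3% of the 506 and 13.04% of the 437. The other 380 promoters gained with equal numbers had a peak in CCC replicate 1 that was not among its 14917 strongest.

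**Figure D1:**
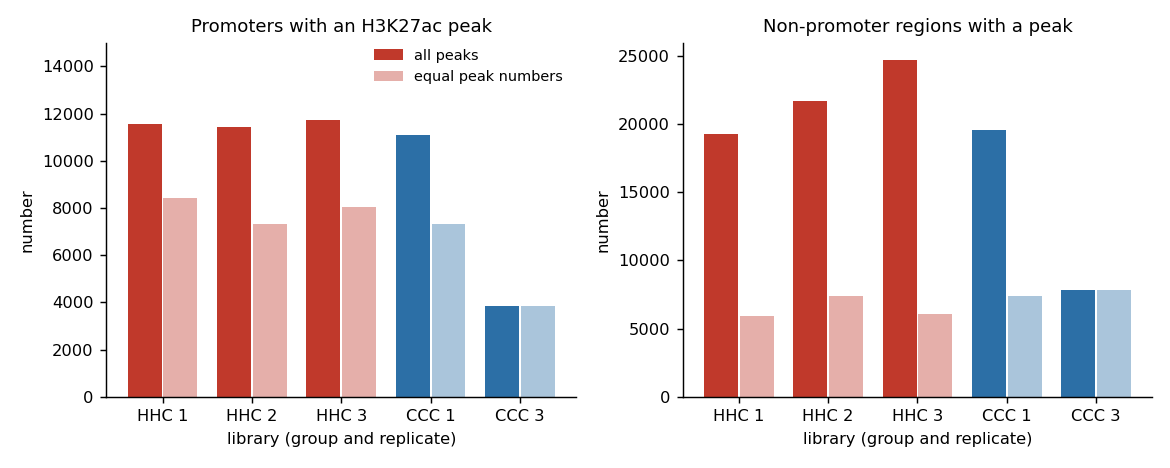
Bars give the number of promoters (left) and of non-promoter regions (right) with an H3K27ac peak in each HHC (red) and CCC (blue) library, with all peaks (dark) and with the 14917 strongest peaks of each (pale). CCC replicate 3 marked 3865 promoters, and the other 4 libraries marked 11106 to 11711.

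The 15 strongest promoters gained under both counts included genes known from lymphocytes and from the interferon response. Each is described by the percentile of its strongest peak among all peaks of the same library, ranked by total signal. Cstad (chr2:30595040-30608943), a gene named for its dependence on T-cell activation, reached the percentiles 97.0, 95.1 and 99.8 in HHC replicates 1, 2 and 3. Ifitm5, of the interferon-induced transmembrane family, reached 98.0, 94.7 and 99.8. The highest signal of its peak in HHC replicate 3 lay within chr7:140955878-140956177, outside the promoter window. The gene lies at chr7:140948958-140950291 on the minus strand, so that peak only overlapped the window. The stretch with the highest signal also overlaps an annotated untranslated region that lies outside this gene. Prrt2, a presynaptic protein gene whose window Pagr1a and Gm42742 share, reached 99.2, 93.0 and 99.5. The windows of all 3 genes overlapped peaks near the top of every HHC list and none in either CCC list.

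Slfn2, a Schlafen gene that keeps T cells quiescent, stood at 98.4, 82.7 and 96.6. Gpr183, the oxysterol receptor that positions lymphocytes, stood at 97.0, 82.6 and 88.5. S1pr1, the sphingosine 1-phosphate receptor of lymphocytes and endothelium, stood at 95.6, 81.6 and 99.1. In these immune receptors and regulators HHC replicate 2 was the lowest of the 3 libraries. Tmc8, a transmembrane channel-like gene that shares its window with Tmc6, stood at 99.1, 84.6 and 99.6. Pik3ip1, an inhibitor of phosphoinositide 3-kinase, stood at 94.4, 80.9 and 99.4. Ifi47, an interferon-induced GTPase whose window Olfr56 shares, stood at 98.6, 79.5 and 94.1. The lowest percentile was again that of HHC replicate 2. The remaining 6 of the 15 strongest, Tbx6, Gm9821, Sema3b, Spata13, Ubald2 and Rab6b, stood between 79.4 and 99.7. Among them Tbx6 encodes a T-box transcription factor of mesoderm, Sema3b a secreted semaphorin and Rab6b a Golgi-trafficking GTPase.

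**Figure D2:**
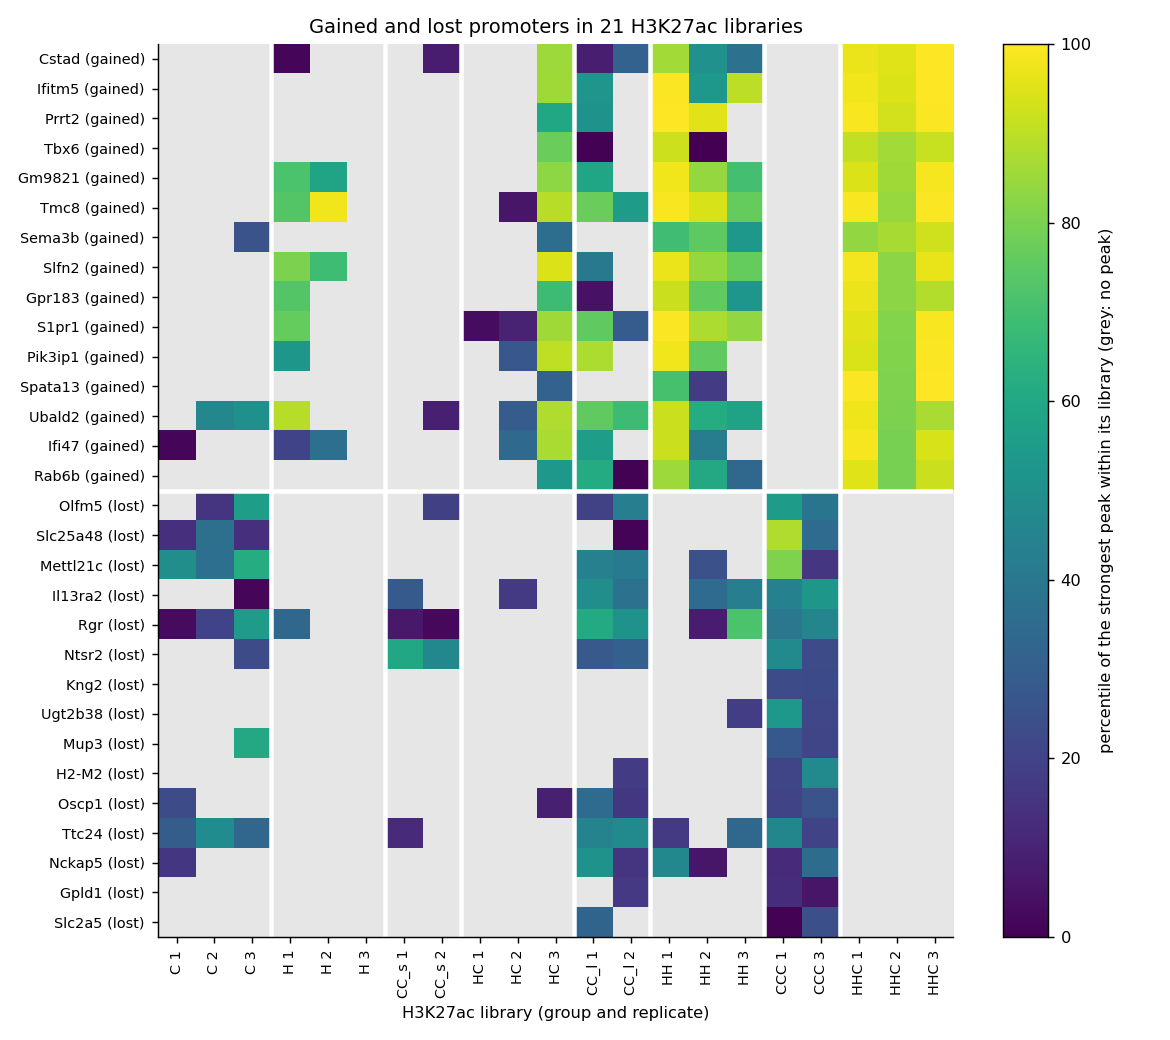
Rows are the 15 strongest gained and the 15 lost promoters, columns are all 21 H3K27ac libraries by group and replicate, and colour is the percentile of the strongest peak within its library, with grey for no peak. Gained promoters are bright in HHC and empty in CCC, and many are also marked in HH and in HC replicate 3, whereas lost promoters have weaker peaks, seen mainly in chow groups.

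Gained members of the gene lists came from immune and other lists, to be read against 2.32% of all promoters. That share includes promoters marked in CCC, which could not be gained. Of 17 leukocyte adhesion genes 3 were gained (Icam1, Itgb2 and Selplg), and of 29 cytokine and inflammatory genes 3 (Tnf, Casp1 and Lif). Of 20 Fc receptor and adaptor genes 2 were gained (Fcgr3 and Pirb), and of 31 interferon-induced genes 4 (Isg15, Ifit1, Oasl1 and Oasl2). Of 23 Toll-like receptor genes 1 was gained (Tlr6), of 14 antigen presentation genes 1 (H2-Eb1) and of 39 chemokine genes 1 (Ccl17), the last near the share of all promoters. Ctss was among those gained of 36 lysosomal genes. None of these lists had a lost promoter. Outside immunity, 4 of 36 cell cycle genes (Bub1b, Ccnb1, Mcm3 and Spc25), Plaur among 28 matrix protease genes, Tbc1d1 among 20 insulin signalling genes and Cyp4b1 among 27 fatty acid uptake and oxidation genes were gained. The lists for adipocyte transcription factors, adipokines, lipid droplets, fatty acid synthesis, collagens, the TGF-β pathway, AP-1 factors and the circadian clock had neither gained nor lost promoters. CCC replicate 1 already marked 17 of 18 adipocyte transcription factor, 21 of 21 lipid droplet and 24 of 24 fatty acid synthesis genes. Those lists had little or no room for gains, so their absence is not read as a result. Of immune lists it marked 3 of 17 leukocyte adhesion, 3 of 14 antigen presentation and 24 of 31 interferon-induced genes. Of the marker lists, macrophage had 2 gained (Aif1 and Laptm5 of 20), endothelial 2 (Cldn5 and Pecam1 of 16), progenitor 2 (Dpp4 and Icam1 of 15), and adipocyte, lymphocyte, mesothelial, mural and epithelial had 0.

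Itgb2, the β2 chain of leukocyte integrins, reached the percentiles 99.5, 38.8 and 93.9 in HHC replicates 1, 2 and 3. Icam1, its ligand on endothelium and other cells, reached 96.6, 54.3 and 92.0, and the promoters of its neighbours Icam4 and Icam5 were gained with it, all within chr9:21015985-21039036. Selplg, the ligand of P-selectin, reached 99.4, 49.98 and 61.4. Each of these 3 was lowest in replicate 2. Laptm5, a lysosomal membrane protein of haematopoietic cells, reached 99.5, 37.3 and 98.9. H2-Eb1, the β chain of a class II antigen-presenting molecule, reached 99.3, 40.8 and 57.8, and all 14 genes of its list were marked in HHC replicate 1, against 5 and 9 in HHC replicates 2 and 3 and 3 and 1 in CCC. Tnf, the inflammatory cytokine, reached 99.3, 48.3 and 74.2. Within HHC the macrophage and lymphocyte marker counts given above were also lowest in replicate 2, and Laptm5 is itself a macrophage marker. HHC replicate 2 and CCC replicate 1 each marked 7 of 20 macrophage markers. That only HHC replicate 2 had peaks at these genes follows from the rule by which they were called gained. The part of the marker counts in the result was not tested.

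The other immune gains had peaks of varied strength. Isg15, a ubiquitin-like protein induced by interferon, stood at the percentiles 86.3, 19.3 and 74.7 in HHC replicates 1, 2 and 3, and Oasl2, a relative of the antiviral oligoadenylate synthetases, at 31.2, 45.2 and 79.2. Ctss, the lysosomal protease cathepsin S, stood at 88.9, 22.5 and 64.5. Fcgr3, a low-affinity receptor for immunoglobulin G, stood at 29.8, 22.7 and 42.8, and Pecam1, an adhesion protein of endothelium and leukocytes, at 75.4, 7.6 and 4.7. The Pecam1 peaks of HHC replicates 2 and 3 lay close to the cut-off of their lists. Casp1, the protease that matures interleukin-1β, stood at 80.9, 63.2 and 55.6, and the interferon-induced Ifit1 and Oasl1 at 81.1, 43.5 and 79.6 and at 80.8, 41.6 and 67.3. None of the list members named so far stayed gained with equal peak numbers, where the list members called were instead Ddx58, Gbp3, Ifit2, Irf9, Rsad2, Stat2 and Usp18 of the interferon list, with Itga4, Cxcr4, Gaa, Mmp14, Plau, Birc5, Pcna and Ly6a. Interferon-induced genes thus had 4 of 31 gained with all peaks and 7 of 31 with equal numbers, and the members were different ones.

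Gained promoters also lay side by side, a description chosen after their values were seen. The span chr6:48647234-48770851 held 7 among 9 genes, namely Gimap3, Gimap4, Gimap5, Gimap6, Gimap8, Gimap9 and Gm28053, and Gimap genes encode GTPases that act in lymphocyte survival. The span chr17:35170991-35224134 held 6 among 7 genes, with Tnf, Lta and Ltb of the tumour necrosis factor family next to Aif1, Lst1 and Gm16181. Neighbours share windows in part, and 85 of the 506 gained promoters overlapped the window of another gene. In the histone clusters 7 of 67 genes were gained, beside 2.32% of all promoters. Of these 7, Hist1h4n, Hist1h2ap and Hist1h2br shared windows and had the same percentiles, 93.1, 71.6 and 97.5 in HHC, so they are not separate gains.

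**Figure D3:**
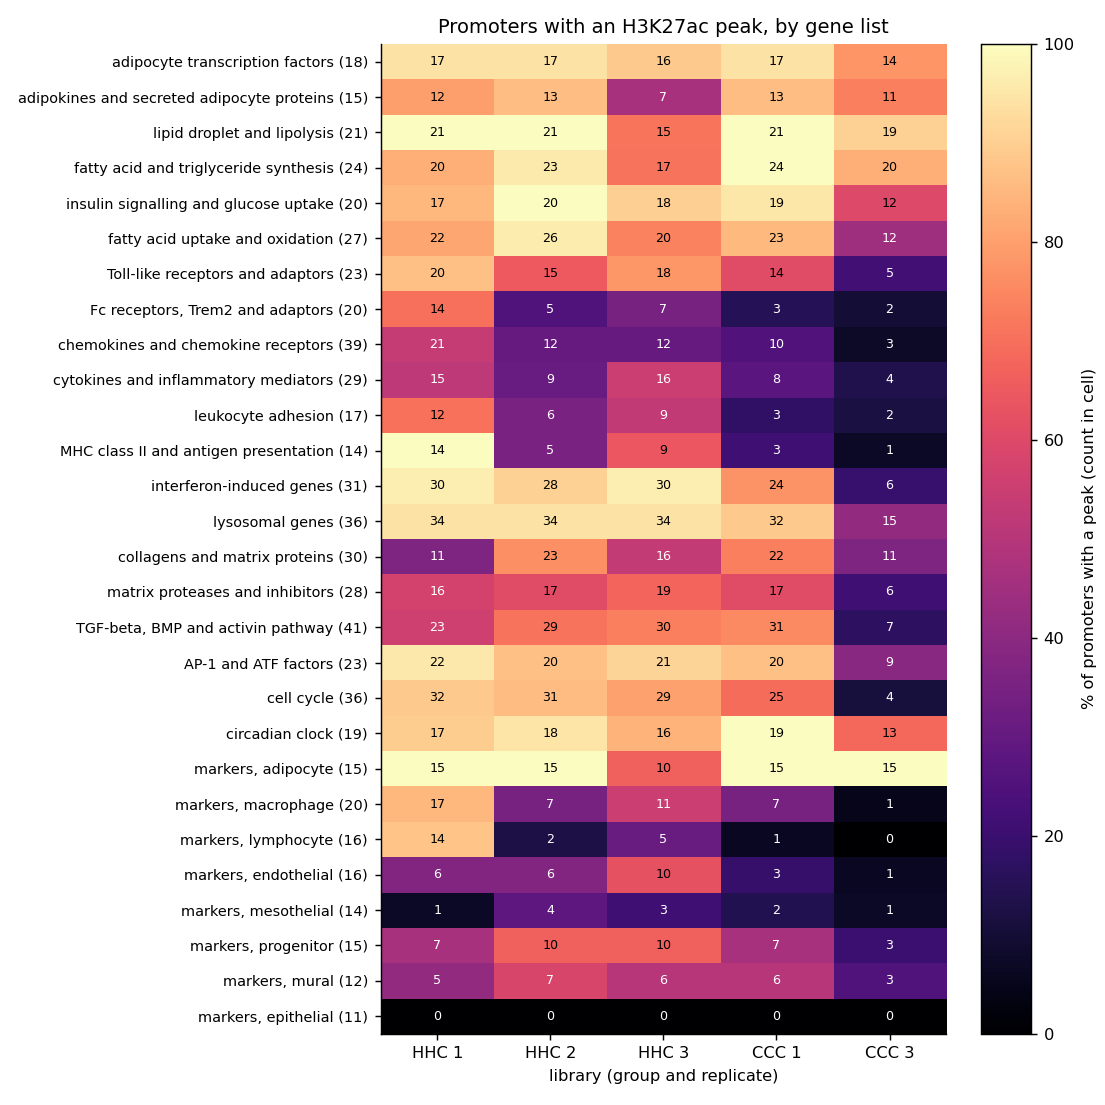
Each cell gives the number of promoters with an H3K27ac peak among the measured members of a gene list (in brackets) in one library, and its colour gives the percentage. Antigen presentation genes are marked in 14 of 14 cases in HHC replicate 1 and in 1 to 9 in the other libraries, and adipocyte markers in 10 of 15 in HHC replicate 3 and in all 15 in the other 4.

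Of 6 genes followed as examples, Icam1 was gained, as above. Tyrobp, the signalling adaptor of Trem2, was marked in HHC replicates 1 and 3, at the percentiles 98.8 and 63.8, and in neither CCC library. Lyz2, the lysozyme of myeloid cells, had a peak in HHC replicate 1 at 71.6 and in CCC replicate 1 at 18.1. The lipid enzymes were instead weakest or unmarked in HHC replicate 3. Gpam, the first enzyme of glycerolipid synthesis, was marked in all 5, at 93.9, 99.1 and 64.7 in HHC and 99.5 and 99.0 in CCC. Acacb, the acetyl-CoA carboxylase that controls mitochondrial fatty acid entry, stood at 92.4 and 99.7 in HHC replicates 1 and 2 and at 99.9 and 93.9 in CCC, with no peak in HHC replicate 3. Cyp2e1, a cytochrome P450, stood at 73.7 and 96.2 in HHC replicates 1 and 2 and at 98.4 in both CCC libraries, again with no peak in HHC replicate 3.

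Lost promoters were few and weak. Slc25a48, a mitochondrial carrier, was at the percentiles 87.9 and 34.9 in CCC replicates 1 and 3, Mettl21c, a lysine methyltransferase of muscle, at 80.6 and 15.7, and Olfm5 at 54.8 and 39.0. These 3 were also lost with equal peak numbers. The other 12 were Il13ra2 (a decoy receptor for interleukin-13), Rgr (a retinal G-protein-coupled receptor), Ntsr2 (a neurotensin receptor), Kng2 (a kininogen), Ugt2b38 (a glucuronosyltransferase), Mup3 (a major urinary protein), H2-M2 (a non-classical class I gene), Oscp1, Ttc24, Nckap5, Gpld1 (a phospholipase that releases anchored proteins) and Slc2a5 (a fructose transporter), with percentiles from 0.40 to 53.3. Ttc24 shares its window with Iqgap3. With equal numbers, lost list members were Me1, the malic enzyme that supplies NADPH for lipogenesis, Ptges, the prostaglandin E synthase, Col3a1, a fibrillar collagen, and Atf6, a sensor of endoplasmic reticulum stress. None of the 4 was lost with all peaks, as held for 64 of the 67 lost with equal numbers. With all peaks Me1, Ptges and Col3a1 had a peak in HHC replicate 2. Atf6 then stood at 34.9, 49.4 and 36.2 in HHC and at 63.8 and 6.5 in CCC.

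The adipocyte transcription factor, adipokine and marker genes included no lost promoter, and most of their peaks were already near the top of the CCC lists. Among 3480 promoters marked in all 5 libraries, the HHC percentiles lay entirely above those of CCC in 948 (27.2%) and entirely below in 100 (2.87%). The short CCC replicate 3 list moved this scale, as the median shift of all 3480 was 15.1 points (mean of HHC minus mean of CCC). Without CCC replicate 3 the counts were 3461 higher and 1085 lower, over the promoters marked in the other 4 libraries. Against that median, 13 adipocyte transcription factor genes had a median shift of -2.93 points with 3 ranked lower and 0 higher, 7 adipokine genes -8.31 with 2 lower and 0 higher, and 10 adipocyte markers -6.55 with 4 lower and 0 higher. In these lists 9, 4 and 8 genes already had a mean CCC percentile above 84.9 and could not rise by 15.1 points, so the lack of higher ranks is not read as a result. Interferon-induced genes (6 promoters) shifted by 31.1 points with 4 higher, lysosomal genes (15) by 28.05 with 4 higher, and cell cycle genes (4) by 28.98 with 2 higher, none of them with a member ranked lower, from median CCC percentiles of 54.7, 61.1 and 60.2.

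Pparg, the master regulator of adipocyte differentiation, had percentiles of 64.0, 93.8 and 70.8 in HHC replicates 1, 2 and 3 and 96.5 and 98.9 in CCC. Adipoq, the gene of adiponectin, was at 99.97, 99.98 and 27.1 in HHC and 99.99 in both CCC libraries, so that its shift of -24.3 points came from HHC replicate 3. Lpl, the lipase that frees fatty acids from lipoproteins, was at 92.4, 99.4 and 91.5 against 99.4 and 99.9. Igf1, a growth factor that adipocytes secrete, was at 90.4, 97.9 and 84.1 against 98.8 and 99.4. Ppargc1a, the coactivator of mitochondrial biogenesis, was at 80.2, 94.7 and 83.6 against 95.1 and 97.6, and Acsl1, an acyl-CoA synthetase, at 97.0, 99.6 and 90.2 against 99.8 and 99.7. In each of these 6 genes HHC replicate 2 came nearest to CCC. Nr1h3, the liver X receptor α, Srebf1, Dgat1, Lipe and Adamts1 were also lower, with shifts from -4.5 to -0.87 points, as was Cspg4, a mural cell marker, by -37.1 points. Among genes that ranked higher, Npc1, the lysosomal cholesterol exporter, was at 86.0, 80.9 and 97.2 against 78.2 and 1.4, and Lipa, the lysosomal acid lipase, at 89.9, 87.7 and 86.8 against 79.3 and 36.7. The interferon-induced Ifit3 was at 91.1, 78.0 and 93.0 against 66.3 and 59.2. Atf4, Atf5, Insr, Acadl, Il15, Ccnd2, Ifih1 and Nuf2 ranked higher too, all but Nuf2 with a CCC replicate 1 value just under the lowest HHC value and a far lower one in CCC replicate 3. So did Iigp1, Fcer1g, Ly96 and Tlr4 of the immune lists. Fcer1g rose by 10.2 and Tlr4 by 6.85 points, less than the median of all promoters (15.1), and Ly96 by 21.8. Of the clock genes that ranked higher, Tef (15.05 points), Nr1d1 (9.96) and Dbp (5.64) had the 3 largest shifts, followed by Per1 (4.35). None of these exceeded the median shift of all promoters, so the higher clock ranks are not read as a result. Bhlhe41 ranked lower.

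Of 46157 non-promoter regions, 1529 were gained (3.31%) and 509 were lost (1.1%). With equal peak numbers the order turned, at 317 gained (0.687%) and 985 lost (2.13%), and 61 gained and 106 lost regions were called both ways. Gained regions had a median width of 3778 bp, against 2160 bp in all regions and 1847 bp in lost ones. A gained region joins peaks of 3 libraries and a lost one of 2, and 23075 of all regions were marked in only 1. Width thus depends on the merging and the call, and is not read as a trait of gained sites. Gained regions lay nearer to start sites, at a median of 21527 bp against 28572 bp in all and 63725 bp in lost regions. Of gained regions 42.3% lay in introns and 35.5% between genes, and of lost regions 31.8% and 56.4%.

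The strongest gained region, chr2:167796916-167810271, lay between genes 108001 bp from the start of Cebpb, which encodes a C/EBP factor of adipocytes and myeloid cells. It stood at the percentiles 96.1, 89.9 and 93.9 in HHC replicates 1, 2 and 3. It was also marked in 3 of 3 H, 3 of 3 HH and 2 of 3 HC libraries, against 0 of 3 C, 0 of 2 CC_s and 1 of 2 CC_l. The second, chr1:64300617-64309042, between genes and nearest to Klf7, a Krüppel-like factor, stood at 90.3, 82.0 and 97.4. A further 7 of the first 10 lay in Arsb, Cerk, Sbk1, Bcl2l1, Nfatc1 and Thada and near Psd2, with percentiles from 75.5 to 99.2. Arsb encodes a lysosomal sulfatase, Cerk a ceramide kinase, Bcl2l1 the survival protein BCL-XL and Nfatc1 a factor of activated T cells and osteoclasts. Counted by nearest gene after the calls were seen, Jak1, Rap1b, S1pr1 and Stk17b each had 6 gained regions, out of 20, 27, 19 and 18, and the S1pr1 promoter was gained as well.

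The strongest lost region, chr6:112585524-112589239, lay between genes 95581 bp from the start of Oxtr, the oxytocin receptor gene, at the percentiles 83.4 and 87.1 in CCC replicates 1 and 3. The second, chr11:103893500-103898402 in an intron of Nsf, a vesicle-fusion ATPase, stood at 81.6 and 87.2. A pair of regions in introns of Frem2, an extracellular matrix protein gene, stood at 83.2 and 79.6 (chr3:53562820-53565129) and at 80.9 and 78.0 (chr3:53575817-53579183). All 4 were marked in 3 of 3 C, 2 of 2 CC_s and 2 of 2 CC_l libraries, and in 4, 5, 2 and 4 of the 9 H, HC and HH libraries, in the order given. The other 6 of the first 10 were nearest to Gsdmc, Vstm2b, Ccdc171, Flrt3, Cachd1 and Elovl4, with percentiles from 71.4 to 92.5. The region near Ccdc171, chr4:83970682-83976368, was marked in all 7 other chow libraries and in none of the 9 other libraries from mice given high-fat diet.

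Motifs were counted in gained, lost and all regions, as a description with no test. In the 300 bases around the highest signal, the C/EBP motif was held by 27.7% of 509 lost regions, 16.4% of all regions and 9.61% of 1529 gained regions. The PU.1 motif went the other way, at 1.38%, 3.31% and 6.28%. The shares for AP-1 were 10.0%, 11.7% and 11.3%, for the PPAR letters 3.14%, 3.05% and 2.68%, for EBF 8.64%, 6.27% and 4.77%, and for the ISRE part 10.8%, 8.75% and 10.6%. Median GC content was 45.3% in lost, 49% in all and 50% in gained regions, and its part in these shares was not tested. RefSeq promoter stretches, from 250 bases before to 50 after the start, were matched for 16515 genes, 387 of them gained. Among these the PU.1 motif was held by 5.68% of gained and 3.12% of all promoters, the ISRE part by 12.7% and 8.35%, EBF by 9.82% and 7.29%, PPAR by 2.84% and 1.74%, C/EBP by 9.82% and 10.0% and AP-1 by 6.98% and 7.10%. The 14 lost promoters with a sequence were too few to describe by shares.

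**Figure D4:**
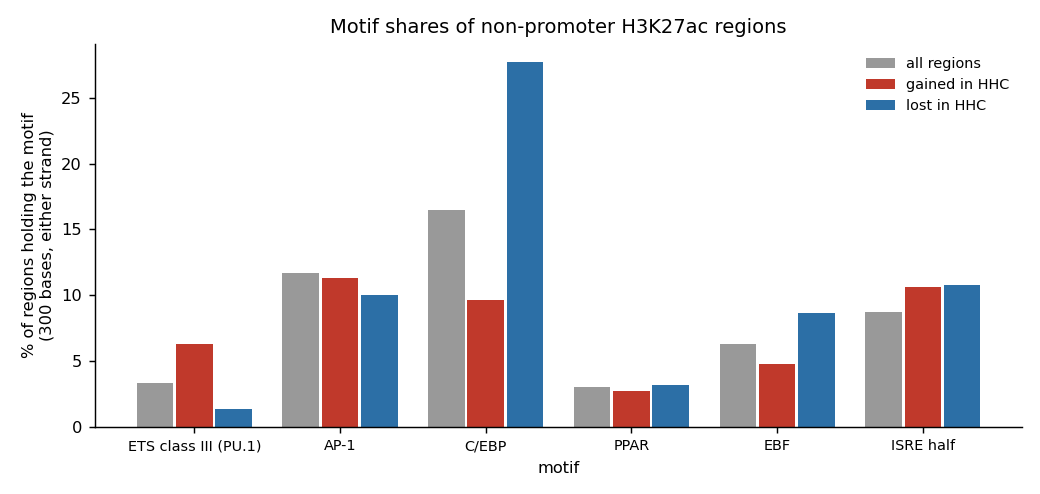
Bars give the percentage of non-promoter H3K27ac regions whose 300 bases around the highest signal hold each motif on either strand, for all 46156 regions with a sequence (grey), 1529 gained (red) and 509 lost (blue). The C/EBP motif is most frequent in lost regions (27.7%) and the PU.1 motif in gained regions (6.28%).

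The same sites were read in mice that had not been used to choose them. Lost regions were marked less in every comparison of diet with chow, on average in 28.3% ± 22.9 (SD, n = 3) of HH against 69.7% ± 0.278 (n = 2) of CC_l libraries, 9.76% ± 6.02 (n = 3) of HC against 34.97% ± 7.502 (n = 2) of CC_s, and 12.4% ± 5.12 (n = 3) of H against 51.0% ± 6.12 (n = 3) of C. The libraries of the compared groups did not overlap in any of the 3 comparisons (exact permutation p = 0.2, 0.1 and 0.1, adjusted p = 0.40, 0.24 and 0.24 over 12 comparisons). On average HH and CC_l libraries marked 34.5% and 37.5% of all regions, HC and CC_s 18.5% and 19.95%, and H and C 14.4% and 24.0%. Single libraries gave 3.73%, 32.2% and 48.9% of lost regions in HH replicates 1, 2 and 3, and 9.04%, 16.1% and 4.13% in HC. HH replicate 1 and HC replicate 3, the lowest of each group, marked 10 and 11 of the 15 adipocyte markers and the other 4 marked all 15, and the part of this in the shares was not tested. Lost promoters gave 22.2%, 4.44% and 2.22% in HH, HC and H against 66.7%, 23.3% and 42.2% in CC_l, CC_s and C, again with no overlap (exact permutation p = 0.1 in each, adjusted p = 0.24).

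Gained sites varied more between libraries. Gained promoters were marked in 30.6%, 63.0% and 92.7% of cases in the HH libraries and in 18.0% and 59.7% in CC_l (difference of means 23.3 points, exact permutation p = 0.4). HC libraries gave 3.75%, 14.2% and 76.9%, against 0.988% and 7.71% in CC_s (27.3 points, exact permutation p = 0.6), and in H they gave 1.98%, 26.1% and 37.0%, against 2.77% to 5.93% in C (16.8 points, exact permutation p = 0.4). All promoters were marked in 49.7% and 50.1% of cases on average in HH and CC_l, 35.7% and 34.7% in HC and CC_s, and 30.02% and 37.4% in H and C. Each diet group had 1 library within or below the range of its controls. HC replicate 3 and HH replicate 1, which marked most gained promoters, also marked 13 of 20 macrophage markers each, 12 and 14 of 16 endothelial markers and 11 and 10 of 15 adipocyte markers. The other 4 HH and HC libraries marked all 15 adipocyte markers, 1 to 7 endothelial markers, and 1 to 14 macrophage markers, the highest in HH replicate 2. The part of these marker levels in the shares was not tested. Of the 506 gained promoters, 128 were marked in all 3 HH libraries (25.3%, against 40.2% of all promoters), and 26 in all 3 HH and neither CC_l library (5.14%, against 0.448% of all promoters).

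**Figure D5:**
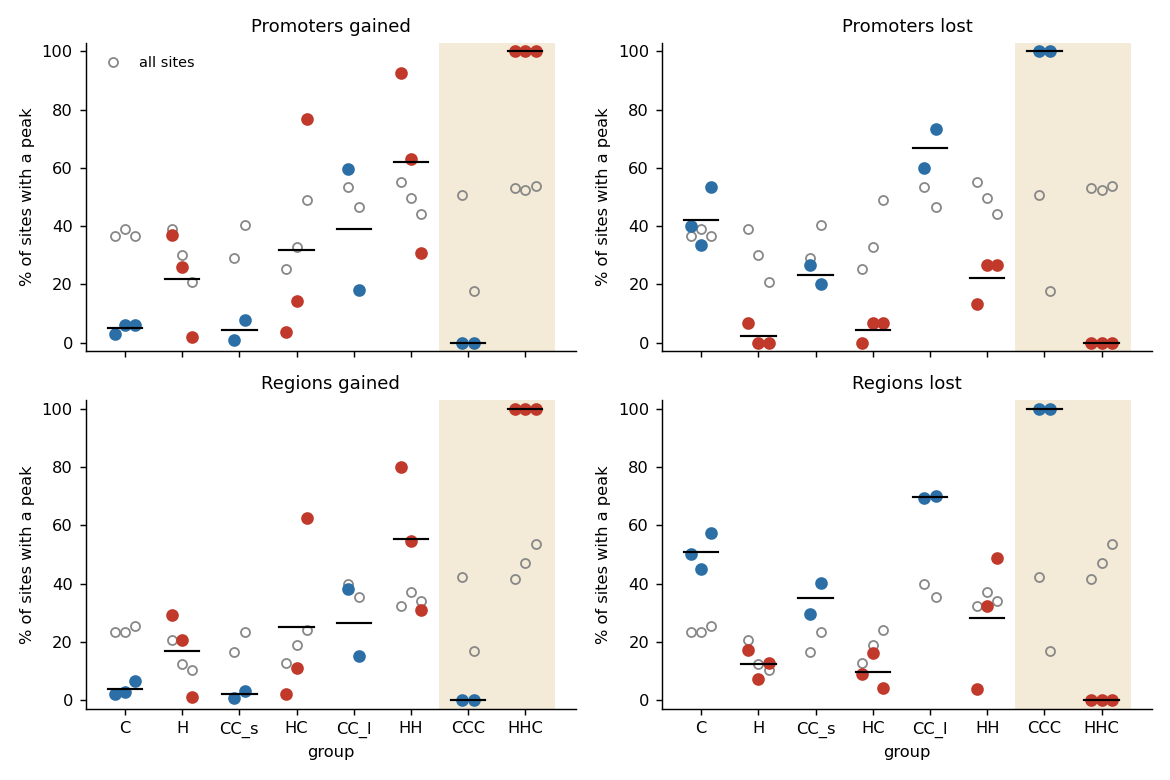
Filled points give the percentage of gained or lost promoters (top) and regions (bottom) with an H3K27ac peak in each of 21 libraries (red: high-fat diet at any time, blue: chow only), lines give group means, open grey points give the percentage over all promoters or regions, and shading marks the 2 groups that chose the sites. Lost regions sit lower in H, HC and HH than in their chow groups, whereas gained promoters range from 3.75% to 76.9% within HC.

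Other marks of the same groups were read at these sites, from libraries that, by the study's design, came from the same fat depots as H3K27ac. H3K4me3, a mark of active start sites, was present at 96.6% ± 0.593 (SD, n = 3) of gained promoters in HHC and 80.6% ± 3.35 (n = 2) in CCC, and at 64.2% ± 8.45 of gained regions against 23.9% ± 1.94. At lost regions the shares were 8.51% ± 5.91 against 50.2% ± 2.08 (exact permutation p = 0.1 in all 3, adjusted p = 0.20 over 12 comparisons). The H3K4me3 library titled CCC replicate 3 carries a treatment field that describes a high-fat diet, and without it the differences were 13.6, 38.9 and -40.2 points. Over all promoters H3K4me3 stood at 64.7% in HHC and 62.8% in CCC, and over all regions at 28.2% and 30.8%. H3K4me1, which marks active and poised enhancers, was present at 79.4% ± 10.4 of gained regions in HHC and 26.1% ± 4.67 in CCC (exact permutation p = 0.1) and at 26.5% ± 25.6 against 83.9% ± 17.2 of lost regions (exact permutation p = 0.2). In HHC replicate 2 it was at 56.0% of lost regions, between the other HHC libraries at 10.8% and 12.6% and CCC. All regions gave 45.2% and 42.4% for H3K4me1. H3K27me3, the polycomb mark of repression, was present at 48.9% ± 13.9 of the 15 lost promoters in HHC and 6.67% ± 9.43 in CCC (exact permutation p = 0.1), and at 21.4% ± 4.57 of gained promoters against 27.2% ± 2.66 (exact permutation p = 0.3). At gained regions its shares were 8.00% and 8.96%, a difference within the spread of both groups. Over all promoters H3K27me3 stood at 22.8% in HHC and 19.4% in CCC, and over all regions at 8.48% and 5.64%.

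Single genes showed these marks together. Itgb2, Selplg, H2-Eb1, Fcgr3, Pirb, Tlr6, Ctss, Pecam1, Aif1 and Ccl17 had an H3K4me3 peak in 3 of 3 HHC and 0 of 2 CCC libraries, as had 52 of the 506 gained promoters, while 382 of the 506 had one in all 5. Icam1 had H3K27me3 in 0 of 3 HHC and 2 of 2 CCC libraries, as had 16 gained promoters in all. These counts were not set beside the shares of all promoters with the same patterns, so they are a description only. Among the 15 strongest gains, Ifitm5 had H3K4me3 in 3 of 3 HHC and 0 of 2 CCC libraries and H3K4me1 in the same ones.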

How the data were processed

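The authors tagged adipocyte nuclei, ran CUT&Tag for H3K27ac and deposited 1 peak list per library. Per the labels and the study's methods, reads were trimmed (Trim Galore 0.6.6), aligned to mm10 (Bowtie2 2.4.4), and peaks were called without a control by SEACR 1.3 in stringent mode at a threshold of 0.01. Each deposited list gives the total and the highest signal of every peak, in coverage that the authors did not scale between libraries, so signal was ranked only within a library. Read depth per library is not given in the sources used here, and peak number stands in for it. Promoters, non-promoter regions, exact permutation tests and percentiles were computed in Python 3.11 scripts with GENCODE M21 basic annotation, tested on simulated peak lists. The study's methods name a blacklist filter, and none was added here. Labels gave the groups, and the labels call the replicates biological. Sites and gene lists were chosen with earlier results of these data known. Named promoters and regions were the 15 gained and 15 lost promoters and 10 gained and 10 lost regions whose strongest peaks had the highest lowest-library percentile, those called with equal peak numbers first, with list members that were called, the 3 largest rank shifts per list and direction, and 6 example genes. Alternatives were equal peak numbers, a stricter threshold, windows of 500 bp, an overlap of 200 bp, other region merging, ranking by highest coverage, each library left out, and a replicate block. The Ifitm5 peak is not shown, since it overlaps an annotated untranslated region. A few sites and genes that met these rules are not reported here.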

Additional observations from a re-analysis of the deposited data

How the results depend on the processing

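No comparison could pass 0.05 in a design of 3 against 2 libraries, and depth is known only through peak number, so these values limit how firmly any site can be called. With equal peak numbers there were 67 lost promoters, 317 gained and 985 lost regions and 58 promoters ranked lower, and the H3K27me3 difference at gained regions became 0.74 points. The stricter threshold gave 976 gained regions. Leaving out 1 library at a time gave 510 to 6270 gained promoters (6270 without CCC replicate 1, 1029 without HHC replicate 2), 17 to 220 lost promoters (220 without CCC replicate 3, 95 without HHC replicate 2), 1540 to 4728 gained regions (4728 without HHC replicate 2, 4194 without CCC replicate 1, 2644 without HHC replicate 1), 546 to 3662 lost regions (3662 without CCC replicate 3, 2419 without HHC replicate 2), 1158 to 3461 promoters ranked higher (2684 without CCC replicate 1) and 122 to 1085 ranked lower (326 without HHC replicate 2, 171 without CCC replicate 1). Some of these counts grow because fewer libraries have to share a state. The share of peaks at promoters differed by -0.69 to 5.31 points, turning negative without CCC replicate 3, and by 13.7 points with equal peak numbers against 2.31 with all peaks, and the similarity within minus between groups by -0.0369 to 0.214, turning negative without CCC replicate 3, HHC replicate 1 or HHC replicate 3. The difference between H and C turned negative without CCC replicate 1 at gained promoters (-13.0 to 16.8 points over all omissions) and at gained regions (-3.43 to 13.2), and that of H3K27me3 ran from -5.72 to 1.497 points at gained promoters and from -1.27 to 2.29 at gained regions. The cause of these changes was not tested. HHC and CCC share replicate numbers 1 and 3, but same-numbered libraries did not deviate together (correlation over promoters -0.0220 and 0.0396), so the numbers are not taken as pairs. With the replicate block, which keeps those 4 libraries, there were 1029 gained and 95 lost promoters, 4728 gained and 2419 lost regions and 326 promoters ranked lower, and 2 pairs allow no exact p below 0.5. Of 79 named promoters and regions, the difference in marked share moved in 41 with equal peak numbers, 25 with the stricter threshold, 17 with windows of 500 bp and 3 with an overlap of 200 bp, none of them to the other sign. All other results kept their direction under every alternative run, and other counts stayed within 1.5 times, but the size of differences moved. It moved by over 1.5 times in 13 differences with equal peak numbers and in 12 each without CCC replicate 1 and without CCC replicate 3, the most of any alternative. Without CCC replicate 1 the difference at gained promoters fell from 16.01 to 1.45 points for H3K4me3 (3.89 with equal peak numbers), from 23.3 to 0.83 for HH minus CC_l and from 27.3 to 3.15 for HC minus CC_s, and that of H3K4me1 at gained regions from 53.3 to 24.6. At lost regions HH minus CC_l went from -41.5 to -22.7 and HC minus CC_s from -25.2 to -9.51 without CCC replicate 3. The log2 difference in peak number was 1.33 without CCC replicate 1 and 0.19 without CCC replicate 3.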
